A study of Homo sapiens with 6 samples.

Results

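TLE3 is a corepressor gene on chromosome 15, and the regions described here are the entries of 4 chromatin peak lists that lie within 200 kb of it. They were chosen by position alone, but the locus was picked because METTL3 entries of LNCaP cells had been seen to gather there, so their number and fold are a description and carry no test. The rule found 8 entries among the 10267 of the 4 lists on chromosomes 1 to 22, X and Y. LNCaP METTL3 gave 7 of its 173 entries, LNCaP PRMT5 gave 1 of 980, PC3 METTL3 gave 0 of 7453 and PC3 PRMT5 gave 0 of 1661. TLE1, TLE2 and TLE4, the closest relatives of TLE3, were read in the same way.

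The study mapped where METTL3 and PRMT5 sit on chromatin in LNCaP and PC3, established human prostate cancer lines, of which LNCaP responds to androgen and PC3 does not. No treatment or genetic change is named in the labels. The groups were METTL3 antibody in LNCaP, PRMT5 antibody in LNCaP, METTL3 antibody in PC3, PRMT5 antibody in PC3 and a control in each line, with 1 library per group. The control libraries are titled IgG, while their antibody field names a secondary antibody, and they entered here only through the calls made against them. In the assay a bound antibody draws Tn5 transposase, an enzyme that cuts and tags DNA, to the chromatin around its target. Each library came from 100000 cells and 16 cycles of PCR. An entry is 1 called peak, with the fold over the control and the −log10 q that the authors' caller gave it. The lists hold no expression values, so the identity of the lines rests on the labels. Read depth is unknown, and with 1 library per group there is no replicate check on any value that follows.

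TLE proteins, the human counterparts of fly Groucho, do not bind DNA themselves. Transcription factors such as the TCF/LEF, RUNX, HES and FOXA proteins bring them to genes, where they hold transcription down together with histone deacetylases. In prostate cancer cells TLE3 is known as a modulator of androgen receptor signalling. METTL3 is the catalytic subunit of the complex that writes N6-methyladenosine on RNA, and it can be found on chromatin where RNA is being made. PRMT5 places symmetric dimethyl marks on arginines of histones and splicing proteins.

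All 7 LNCaP METTL3 entries lay at the 5′ end of TLE3, in a stretch of 9.66 kb. TLE3 occupies positions 70047790 to 70097917 of chromosome 15 (hg38) on the minus strand, so the end with the higher coordinate is its start. RefSeq's promoter table (GRCh38.p14, the same primary coordinates) lists 3 starts for it, with first bases at 70097917, 70096752 and 70094789. Of the 7 entries, 5 lay upstream of the gene, 1 lay across the first start and 1 lay inside the gene. The entry inside the gene ended upstream of the listed start farthest downstream, and its summit was 164 bp from that start's first base. The middle start had no entry, and the nearest was 658 bp from its promoter window. RefSeq's windows run from 250 bases before to 50 bases after a start.

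The promoter bases of TLE genes under LNCaP METTL3 entries are printed here. Bases outside the promoter windows were not available. The motifs and base composition given below therefore do not describe the TLE3 entries upstream of the gene, the highest by fold among them. The bases before the first TLE3 start (chr15:70097918-70098167, minus strand) lay wholly under the entry of fold 14.8. Of the 250 bases before the internal start, 182 lay under the entry of fold 8.51 (chr15:70094858-70095039, minus strand). TLE4 is included since 87 bases before its first start lay under a LNCaP METTL3 entry too (chr9:79571715-79571801, plus strand). Each is written 5′ to 3′, and capitals mark matches, on either strand, to 5 common promoter elements: the CCAAT box, the GC box (letters GGGCGG), the E-box (letters CACGTG), the core of the cAMP response element (letters TGACGT) and the TATA box (letters TATAAA).
TLE3 first start: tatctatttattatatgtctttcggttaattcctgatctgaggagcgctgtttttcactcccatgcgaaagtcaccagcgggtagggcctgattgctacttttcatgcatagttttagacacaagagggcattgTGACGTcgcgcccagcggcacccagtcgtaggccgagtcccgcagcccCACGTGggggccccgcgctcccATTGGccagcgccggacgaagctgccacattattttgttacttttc
TLE3 internal start: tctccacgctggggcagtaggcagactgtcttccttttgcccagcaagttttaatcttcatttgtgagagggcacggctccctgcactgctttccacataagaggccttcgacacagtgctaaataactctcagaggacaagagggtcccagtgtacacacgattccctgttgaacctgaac
TLE4 first start: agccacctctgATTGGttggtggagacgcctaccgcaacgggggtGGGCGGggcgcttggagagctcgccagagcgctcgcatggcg

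No element was in all 3 stretches. The first TLE3 start held a cAMP response element core, an E-box and a CCAAT box on the opposite strand, and no GC box. Among 22199 promoter windows of protein-coding genes, cut to the same 250 bases before the start, the cAMP response element core was found in 8.00%, the E-box in 7.37%, the CCAAT box in 32.7%, the GC box in 53.7% and the TATA box in 9.0%, each on either strand. The TLE4 stretch held a CCAAT box on the opposite strand and 1 GC box, and the full 250 bases before that start held 3 GC boxes. The TLE4 and internal TLE3 stretches are shorter than 250 bases, so the shares above do not apply to them. The internal TLE3 stretch held no match, and the TATA box before that start lay outside the entry. No motif overlapped another, and a match is a string of letters, not a bound site.

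Base composition also differed among the promoters under METTL3 entries. The 250 bases before the first TLE3 start were 53.6% G and C with 17 CpG dinucleotides, and those before the internal start were 51.6% with 4. The first start of TLE4 had 59.2% and 20. The median promoter window had 62% and 16. Starts of TLE genes without an entry were mostly richer in G and C, with 70.8% at the middle start of TLE3, 75.2% at TLE1, 77.2% at the internal start of TLE2 and 72.8% at the internal start of TLE4. The first start of TLE2, with 50.8%, also had no entry.

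Fold was highest 1.81 kb upstream of the first start, next highest across that start and lowest at the outermost entry upstream, with no steady fall between. The highest entry of the whole LNCaP METTL3 list, with a fold of 19.8 and a −log10 q of 36.6, spanned 812 bp from position 70099145 to 70099956, with its summit 1.81 kb upstream of the first start. The entry across that start, positions 70097660 to 70098209, had a fold of 14.8 and a −log10 q of 24.5, ranked 2 by fold and had its summit 88 bp upstream. Between them lay a narrow entry of 209 bp with a fold of 8.00 and its summit 907 bp upstream.

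Farther upstream, the entry at positions 70100625 to 70101283 had a fold of 8.85 and its summit 2.90 kb from the start. The next, at 70101724 to 70102264, had a fold of 10.8, ranked 5 of 173, and its summit lay 4.19 kb away. The outermost entry, at 70104306 to 70104514, had the lowest fold of the 7, 5.70, with a −log10 q of 2.58, and its summit lay 6.56 kb away. The entry inside the gene, at 70094858 to 70095148, had a fold of 8.51 and its summit 2.96 kb downstream of the first start. The other end of TLE3 was far from all of them, with summits 47.2 to 56.7 kb away.

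**Figure D1:**
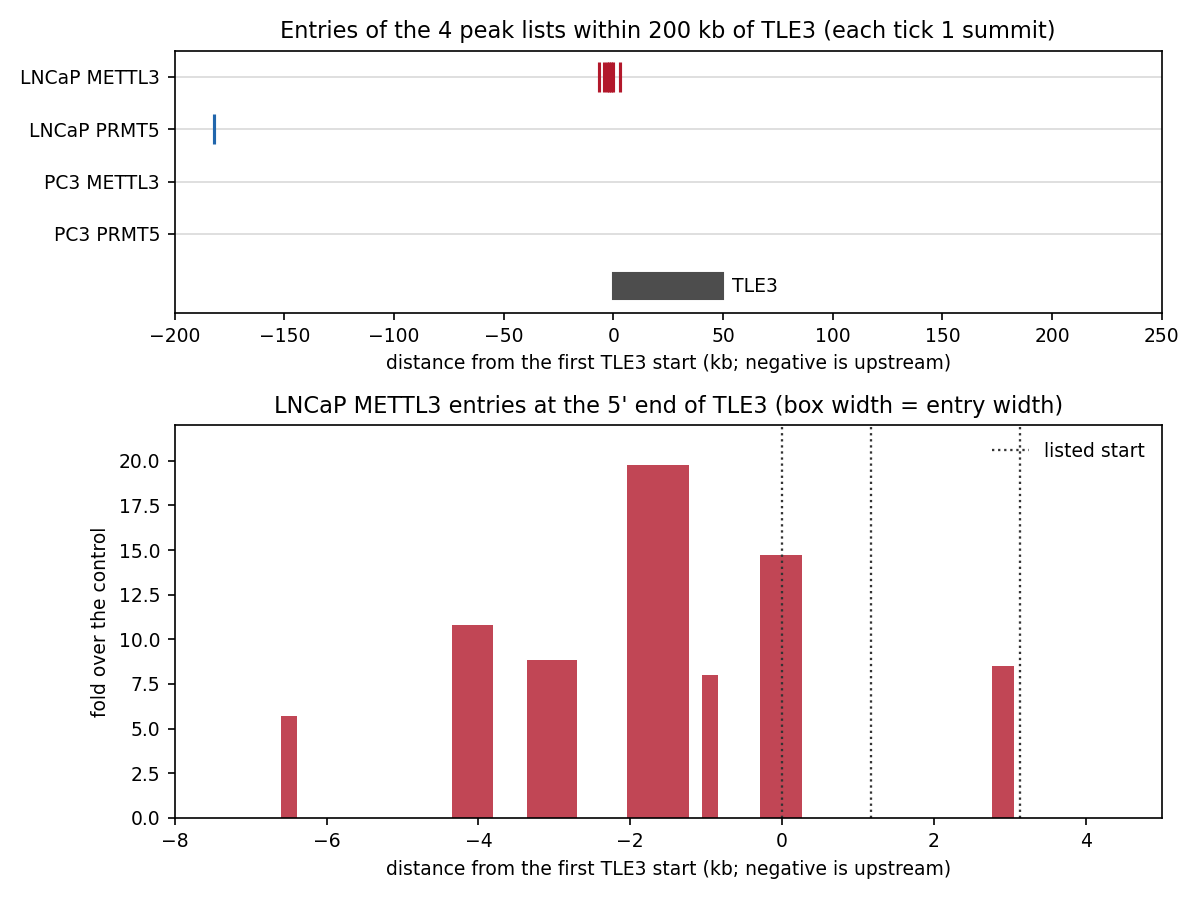
Top, summits of the entries of each list (rows) by distance in kb from the first TLE3 start, with the gene as a dark bar. Bottom, the 7 LNCaP METTL3 entries as boxes of their own width with the fold over the control as height, dotted lines marking the 3 listed starts; the boxes rise to 19.8 at 1.81 kb upstream, and the PC3 rows are empty.

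Together the 7 entries covered 3271 bp, or 33.9% of the stretch they span, with gaps of 172 to 2511 bp between neighbours. The settings of the peak caller are not known here, so whether 1 broad region was split into several entries was not tested. Counted as 1 cluster, with edges within 5 kb of each other, they made the group with the most entries of the LNCaP METTL3 list. The next had 4 entries, inside LOC102724250 near the start of chromosome 1, with a highest fold of 3.08. The list held 157 clusters, of which 9 had 2 or more entries.

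As a group, the TLE3 entries had a higher median fold and width than the rest of that list. Their median fold was 8.85, against 6.20 for the other 166 LNCaP METTL3 entries, and their median width was 541 bp, against 263 bp. Of the 7 entries of the list with a fold of at least 10, 3 lay here, and 5 of the 20 highest by fold did. They took up 6.25% of the 52.3 kb that the list covers. By −log10 q they ranked from 6 to 157 of 173, and the 5 entries of the list above them had folds under 5.

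**Figure D2:**
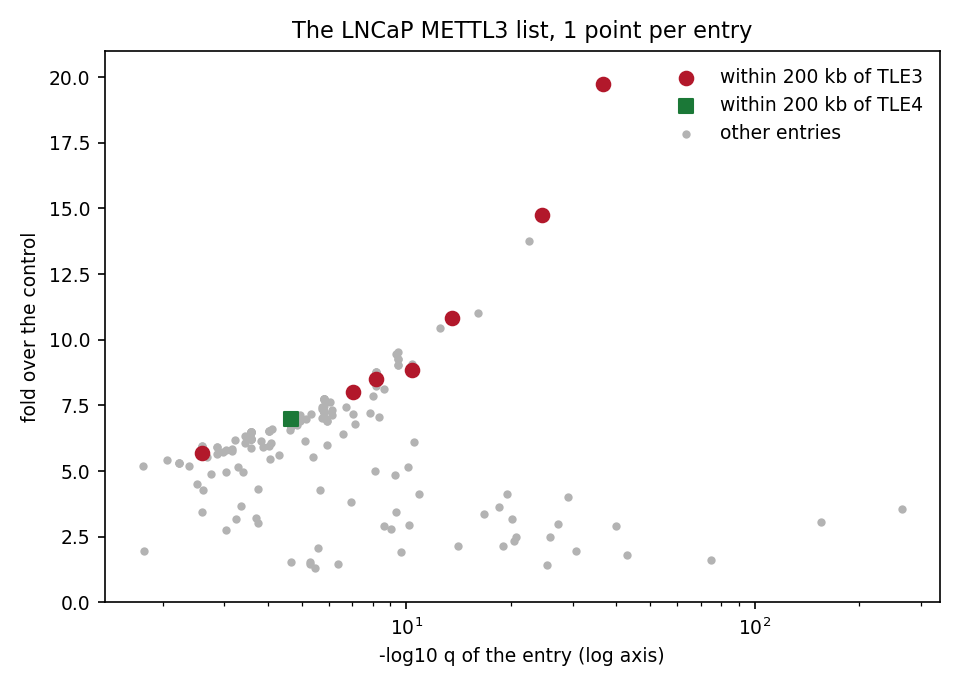
Fold over the control (vertical axis) against −log10 q (horizontal log axis) for the 173 entries of the LNCaP METTL3 list, with the 7 entries at TLE3 in red and the 1 at TLE4 as a green square. The TLE3 entries run from a fold of 5.70 to 19.8, the highest of the list, and points far to the right have low folds.

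Against its own chromosome the TLE3 window was dense in LNCaP METTL3 entries and in no other list to that degree. The window of 450 kb, 0.519% of the usable length of chromosome 15, held 7 of the chromosome's 9 LNCaP METTL3 entries, or 77.8%. That is 15.6 entries per Mb (95% exact Poisson interval 6.25 to 32.0), against 0.0232 per Mb (0.00281 to 0.0838) in the rest of the chromosome. The interval covers counting error only and treats neighbouring entries as independent. It takes no account of the locus having been picked for these entries, so the comparison is a description and not a test. The other 2 entries of the chromosome, with folds of 5.72 and 7.75, lay at positions 27351392 to 27351600 and 101354154 to 101354362. Counted as clusters, the chromosome held 3, of which 1 was at TLE3.

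The other lists had few or no entries there. The LNCaP PRMT5 entry lay 182 kb upstream of the gene at positions 70280030 to 70280240, with a fold of 5.12 and a −log10 q of 1.60, ranked 776 of 980 by fold. The density that this makes, 2.22 per Mb, rests on that entry alone, against 0.162 per Mb in the rest of the chromosome. At the density of the rest of the chromosome the window would hold 1.01 PC3 METTL3 entries and 0.125 PC3 PRMT5 entries, against the 0 found in each. None of the 7 LNCaP METTL3 entries overlapped an entry of another list, whereas 86 of the 173 LNCaP METTL3 entries, 49.7%, overlapped at least 1.

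The absence of PC3 entries reached far beyond TLE3, and TLE3 also lay in a long stretch without LNCaP PRMT5 entries. No PC3 METTL3 entry lay between positions 67119320 and 72869185, a stretch of 5.75 Mb, the longest of 193 such stretches between neighbouring entries on chromosome 15, where the median was 0.20 Mb. It took in 41 protein-coding genes. Over all chromosomes, with centromeres not removed, it ranked 18 of 7429 by length and 42 by the number of protein-coding genes inside. In the PC3 PRMT5 list TLE3 lay in a stretch of 16.4 Mb without entries, again the longest of the chromosome, out of 23. In the LNCaP PRMT5 list TLE3 lay in one of 11.9 Mb, from position 58332475 to the entry 182 kb upstream of the gene, which ranked 3 of 14. LNCaP PRMT5 had 2 entries in the 5.75 Mb, and LNCaP METTL3 had the 7 at TLE3 and no other.

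No other protein-coding gene had as many LNCaP METTL3 entries nearby. Of 20037 protein-coding genes, 503 had at least 1 entry of the list within 200 kb, or 2.51%, and TLE3 was the 1 gene with 7, or 0.00499%. PTPRN2, a receptor-type phosphatase gene of 1049 kb, had 5 entries, spread over a far longer window, which gives 3.45 per Mb against 15.6 at TLE3. The 7 genes of the LOC102724250 locus, among them the olfactory receptor genes OR4F16 and OR4F29, each had the same 4 entries. In the window of LOC102724250 these made 8.65 per Mb, the nearest to TLE3 among the loci named here, with a highest fold of 3.08. The next loci by summed fold had 2 entries each, at KIF26B, a kinesin gene, at DIP2C, tied among 4 genes, and at the cytokine gene IL13, tied among 8 neighbours that include IL4 and IL5. Genes that share an entry made 118 loci, 106 of them with 1 entry.

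**Figure D3:**
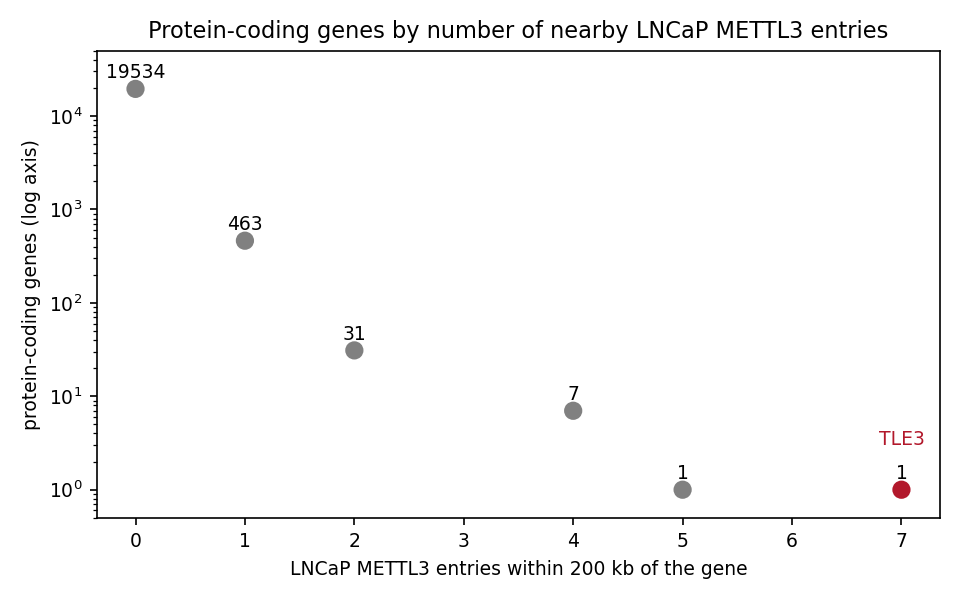
Number of protein-coding genes (vertical log axis) by how many LNCaP METTL3 entries lie within 200 kb of the gene (horizontal axis). Most genes, 19534, had none, 463 had 1, and TLE3 stands by itself at 7.

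Long clusters were not peculiar to METTL3. Clusters of 7 or more entries numbered 1 in LNCaP METTL3, 4 in LNCaP PRMT5, 0 in PC3 METTL3 and 7 in PC3 PRMT5. The most entries in any stretch of 10 kb were 7 in LNCaP METTL3, at TLE3. The LNCaP PRMT5 list reached 9, PC3 METTL3 reached 4 and PC3 PRMT5 reached 10. The PRMT5 lists of both lines reached their highest counts in a cluster around SUN1 on chromosome 7, with 12 entries in LNCaP and 29 in PC3.

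TLE4 also had a LNCaP METTL3 entry at its start, and TLE1 and TLE2 had none within 200 kb. TLE4 lies on the plus strand at positions 79571965 to 79726882 of chromosome 9. Its entry, at 79571529 to 79571801, was 273 bp wide, had a fold of 6.98 and a −log10 q of 4.67, and ranked 52 of 173 by fold. Its summit lay 407 bp upstream of the first TLE4 start, and its edge 164 bp from it. The entry is 1 of 7 on chromosome 9, and it gives a density of 1.80 per Mb (0.0456 to 10.0), against 15.6 at TLE3 and 0.0500 in the rest of chromosome 9. TLE4 resembled TLE3 in the position of its entry and differed in having 1 in place of 7.

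Entries at promoters were few in this list of 173. Among 15843 protein-coding genes with a window in the promoter table, 3 had a LNCaP METTL3 entry in one, or 0.0189%, and these were TLE3, TLE4 and CARS2. CARS2, which encodes the mitochondrial cysteinyl-tRNA synthetase, was named after its value was seen. Its entry had a fold of 9.45, had its summit 133 bp upstream of the start and overlapped a LNCaP PRMT5 entry, which the TLE3 and TLE4 entries did not. In the same windows 204 genes had one of the 980 LNCaP PRMT5 entries, 18 one of the 7453 PC3 METTL3 entries and 153 one of the 1661 PC3 PRMT5 entries. None of these genes was a TLE gene of the 4. Each count is a small share of the 15843 genes, so the lack of a TLE gene among them is no sign of avoidance. Within 3 kb of either gene end the LNCaP METTL3 list had an entry at 0.0799% of the 20037 protein-coding genes, 16 in all, TLE3 and TLE4 included.

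The remaining lists placed no entry within 100 kb of a listed start of the 4 TLE genes. PC3 METTL3 had 1 entry within 200 kb of TLE4, 124 kb beyond its 3′ end, with a fold of 4.37 and a rank of 6112 of 7453, and none at the others. In that list 55.3% of protein-coding genes had an entry within 200 kb, so 1 gene of 4 is no sign of gathering. LNCaP PRMT5 had its 1 entry near TLE3 and 1 entry 179 kb beyond the 3′ end of TLE2, 1.24 kb from ZNF554, a zinc finger gene, with a fold of 12.4 and a width of 1183 bp. Those are 2 genes of 4, where 19.4% of protein-coding genes had one. Both entries lay far from the gene, at 182 and 179 kb. At the density of the rest of chromosome 19 the TLE2 window would hold 0.642 LNCaP PRMT5 entries. With so few genes and entries the count is no sign of gathering either. PC3 PRMT5 had none at the 4 genes, against 26.3% of protein-coding genes.

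**Figure D4:**
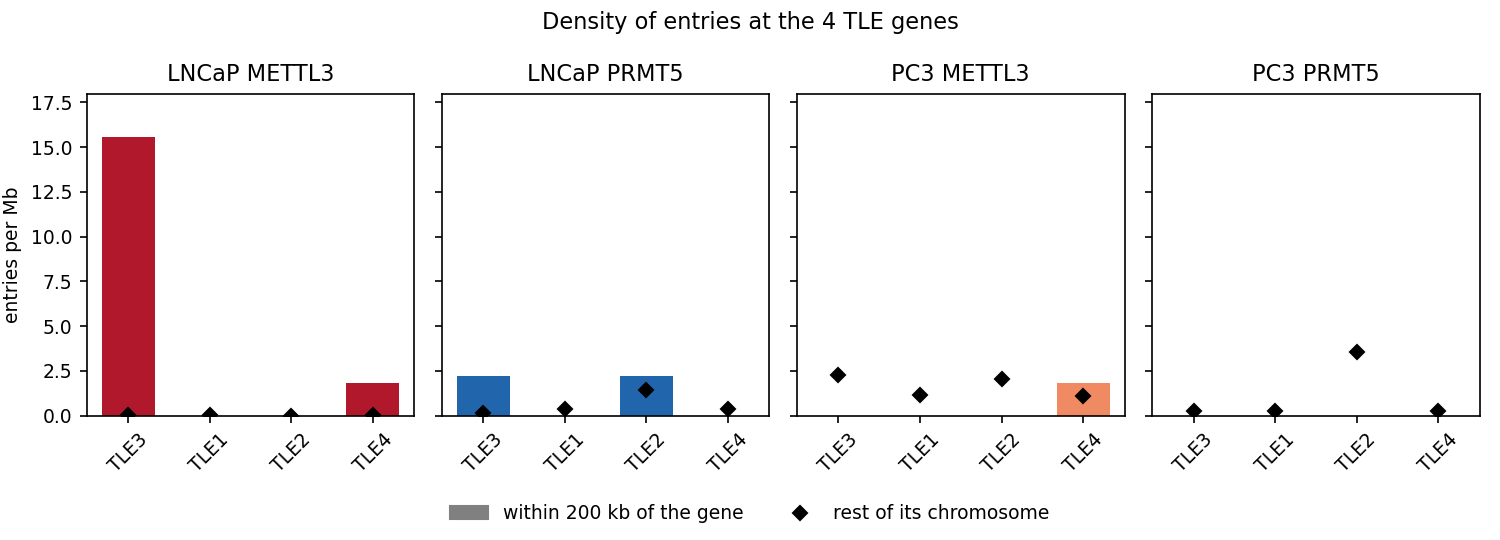
Entries per Mb (vertical axis) within 200 kb of TLE3, TLE1, TLE2 and TLE4 (bars) and in the rest of the gene's chromosome (black diamonds), 1 panel per list. The LNCaP METTL3 bar at TLE3 reaches 15.6, and no other bar passes 2.22.

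TLE1, on chromosome 9 at positions 81583683 to 81689547, had its nearest LNCaP METTL3 entry 2.01 Mb away, which was the TLE4 entry. The nearest PC3 METTL3 entry was 382 kb away and the nearest LNCaP PRMT5 entry 617 kb away. TLE2, at positions 2997644 to 3047635 of chromosome 19, could have none nearby, because the LNCaP METTL3 list had no entry on that chromosome. The nearest PC3 PRMT5 entry to TLE2 was 214 kb away, just outside the window, with a fold of 12.4, beside SGTA. At TLE3 the first LNCaP METTL3 entry outside the window was 31.3 Mb away, so the choice of 200 kb set none of the 7. The first entry outside was 2.28 Mb away for LNCaP PRMT5, with a fold of 15.7, 2.77 Mb away for PC3 METTL3, with 4.40, and 4.0 Mb away for PC3 PRMT5, with 8.19.

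**Figure D5:**
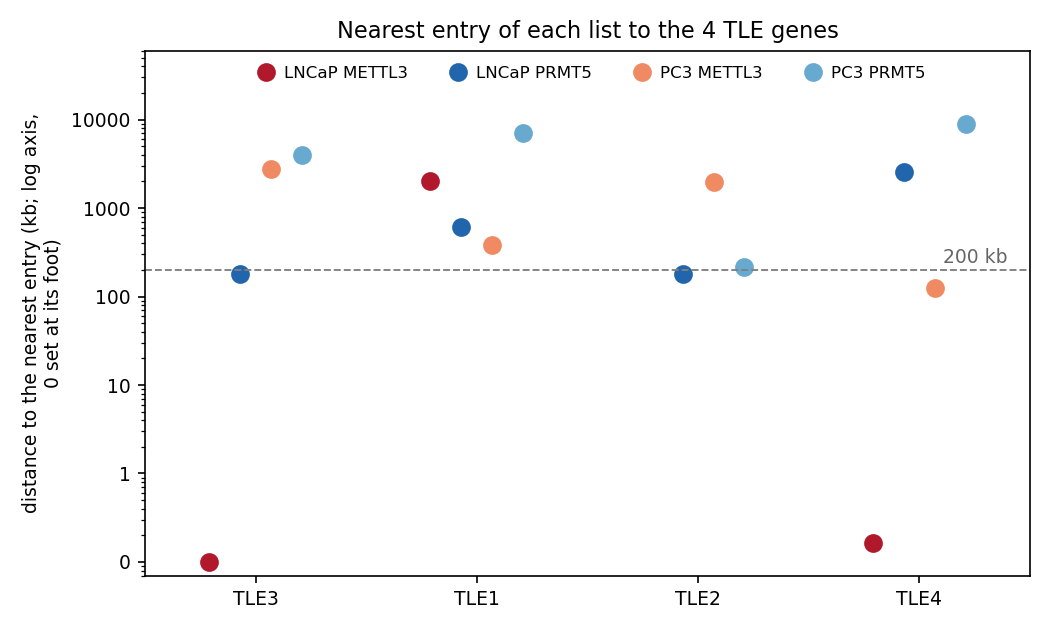
Distance in kb (vertical log axis, 0 drawn at its foot) from each TLE gene to the nearest entry of each list, with a dashed line at 200 kb. LNCaP METTL3 entries lie at 0 for TLE3 and 0.164 kb for TLE4, and there is no point for this list at TLE2, whose chromosome had no entry of it.

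The other TLE family genes and the genes of TLE partners had no LNCaP METTL3 entry within 200 kb. TLE5, which lacks the WD repeats of the longer TLE proteins, TLE6 and TLE7 gave 0 of 3. TLE5 and TLE6 could have none, because they lie on chromosome 19, where the list had no entry. Of the 34 partner and co-factor genes, among them TCF7L2, LEF1, HES1, RUNX1, FOXA1, HDAC1 and HDAC2, the list reached 0, where 2.51% of protein-coding genes had an entry. LNCaP PRMT5 reached 5 of the 34, or 14.7%, PC3 METTL3 reached 18, or 52.9%, and PC3 PRMT5 reached 8, or 23.5%, each close to or below the share of all protein-coding genes.

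Within 3 kb of a gene end, 1 of the 34 partner genes had an entry, and it was RUNX2, which encodes a runt-domain factor of bone and cartilage. The RUNX2 entry had a fold of 6.71 in LNCaP PRMT5 and 9.71 in PC3 PRMT5, at chromosome 6, positions 45554051 to 45554252 in LNCaP and 45553991 to 45554290 in PC3, so the 2 overlapped. Both lay near the limit of 3 kb, at 2969 and 2909 bp from the gene's end. The share of all protein-coding genes with such an entry was 1.96% in LNCaP PRMT5, 2.58% in PC3 METTL3 and 2.48% in PC3 PRMT5. TLE6, a neighbour of TLE2, had 3 LNCaP PRMT5 entries and 1 PC3 PRMT5 entry within 200 kb. The nearest of each list, 159 and 194 kb away, were the entries named above for TLE2, beside ZNF554 and SGTA. TLE6 was the 1 gene of the 3 other TLE family genes with an entry in each PRMT5 list. Of all protein-coding genes, 19.4% had an entry within 200 kb in LNCaP PRMT5 and 26.3% in PC3 PRMT5.

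TLE3 was the 1 protein-coding gene in its window. The gene table places 6 other genes there, which are the long noncoding RNA genes LOC101929129, LOC124903518, LOC107984734 and LOC105370878, the pseudogene RNU6-745P, and MIR629, a microRNA gene inside TLE3. The nearest gene on the upstream side, LOC107984734, lay 31.7 kb from TLE3, so the METTL3 entries upstream of TLE3 lay in a stretch with no other listed gene.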

How the data were processed

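Chromatin was tagged in LNCaP and PC3 cells with METTL3 and PRMT5 antibodies, 1 library per group. The submitters' processing notes name MACS2 2.1.0, Bowtie 1.1.1, Trimmomatic 0.33, bcl2fastq 2.17 and ChIPseeker, with the build hg38. The sources used here do not give the caller's settings or say whether duplicates were removed or reads shifted. The deposited file names pair every library with the control of its own line. The fold (a ratio to the control's expected signal), −log10 p, −log10 q and score (10 times the −log10 q, rounded down, in all but 1 entry of each PRMT5 list) are the authors' deposited values, used to describe, rank or filter entries within a list.

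Entries outside chromosomes 1 to 22, X and Y were dropped. No other filter, such as one for regions prone to artefacts, was applied here to the main counts, so an entry or cluster may lie in such a region. Genes and promoter windows came from RefSeq tables of GRCh38.p14, with 20037 protein-coding genes, 15843 of them with a promoter window; all 4 TLE genes and all 37 listed family and partner genes matched. An entry counted when any base lay within 200 kb of a gene. Densities left out gene-free stretches of at least 2 Mb. Exons and introns were not annotated. Counts were made in Python 3.11.15 with pandas 2.3.3 and SciPy 1.17.1, and the counting was tested on simulated data. The members, gene lists, motifs and naming rule (all entries in the TLE windows, the 6 loci with most entries, partner genes with an entry within 3 kb of an end) were chosen with earlier results of these data known. No test was run, because the locus was chosen from these values and no group has replicates. The alternatives were windows of 100 and 500 kb, a −log10 q of at least 3, a fold of at least 5, summits in place of any base, genes of all types, clusters, other reference lengths and 2 other overlap rules.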

Additional observations from a re-analysis of the deposited data

How the results depend on the processing

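Of 61 recomputed values, 49 stayed within 1.5 times the value reported. Many of the 49 were counts of 0, such as those of both PC3 lists at TLE3, which stricter settings could not change. The LNCaP METTL3 count at TLE2 could not change under any setting, because that list had no entry on its chromosome. The LNCaP METTL3 count at TLE3 was 7 with windows of 100 and 500 kb, with a fold of at least 5 and by summit. It was 6 with a −log10 q of at least 3. No entry overlapped another list under the 3 overlap rules. The alternative rules could give no other result, since the nearest entry of another list was 175.5 kb away. The LNCaP PRMT5 count at TLE3 was 0 with 100 kb and with a −log10 q of at least 3. The ratio of LNCaP METTL3 density at TLE3 to the rest of chromosome 15, 670.3, was 1209 with 100 kb, 285 with 500 kb, 1149 with a −log10 q of at least 3, 95.8 with clusters in place of entries and 269.9 against the rest of the genome. The share of protein-coding genes with an entry was 1.52% for LNCaP METTL3 and 12.7% for LNCaP PRMT5 with 100 kb, and 5.75%, 33.2% and, for PC3 PRMT5, 41.1% with 500 kb. No paired analysis was possible because each group has 1 library, and for the same reason no replicate could be left out. Read depth is unknown, so a list without entries at TLE3 does not show that the protein is absent there.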
